A study of Mus musculus with 8 samples.

Results

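The Notch receptor and ligand genes of the mouse were followed across 8 RNA-sequencing libraries of ID8 IP2 cells. They were chosen by gene symbol: the 4 receptors Notch1, Notch2, Notch3 and Notch4 and the 6 ligands or ligand-like genes Jag1, Jag2, Dll1, Dll3, Dll4 and Dlk1, 10 of the 23284 symbols counted. ID8 IP2 is a subline of the ID8 mouse ovarian surface epithelial cancer line, obtained by serial passage in C57BL/6 mice. All lines also carried a lentiviral luciferase-mCherry reporter. The Notch3IC lines were infected with a pCCL lentivirus for the HA-tagged Notch3 intracellular domain with an IRES and GFP, and the Control lines with the empty pCCL virus. Each of Sets 1 to 4 was a separate infection that gave 1 Control and 1 Notch3IC line, so there were 4 libraries per condition. Mycoplasma contamination, which the study's methods report as likely, would apply to both conditions. The Control libraries held 24910528, 19013578, 23601232 and 28208072 reads counted on genes, and the Notch3IC libraries 22980440, 15524262, 25344051 and 27107061, given here and throughout in the order of Sets 1 to 4.

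Notch receptors are single-pass membrane proteins that bind ligands of the Jagged and Delta families on neighbouring cells. Binding leads to cleavage by ADAM proteases and gamma-secretase, and the freed intracellular domain enters the nucleus, where it acts with Rbpj and Mastermind-like proteins on target genes of the Hes and Hey families. In vessels Notch3 is best known in mural cells and Notch4 and Dll4 in endothelium, and Dlk1 and Dll3 are atypical members that do not activate the receptors in the way Jagged and Delta ligands do.

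Values are given as normalized counts, which are counts scaled to a common library size by the TMM method, or as levels, which are TMM-scaled CPM per kilobase of exon and allow genes of different length to be compared. Notch3IC was compared with Control by edgeR's quasi-likelihood test over the 12430 genes that passed its expression filter, with calls made where the adjusted p was below 0.1 and the log2 fold change 1 or more in size. Of the 10 genes, 7 passed the filter, and Dll4, Dll3 and Dlk1 did not. Notch1, Notch3 and Jag1 were called higher in Notch3IC and 0 were called lower, nor did any fall at an unadjusted p under 0.05 or by DESeq2, in a comparison where 3.4% of all tested genes were called higher and 0.74% lower. In the same 3 genes all 4 Notch3IC libraries lay above all 4 Control libraries, which held for 7.06% of tested genes, while 3.77% lay wholly below. Notch3 was introduced by the virus, so its call and its separation follow from the design. Beside these shares only Notch1 and Jag1 count as observations. Each p measures the spread between these infected lines, which all derive from 1 parental line. In bulk RNA a larger share of expressing cells and more RNA per cell cannot be told apart.

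**Figure D1:**
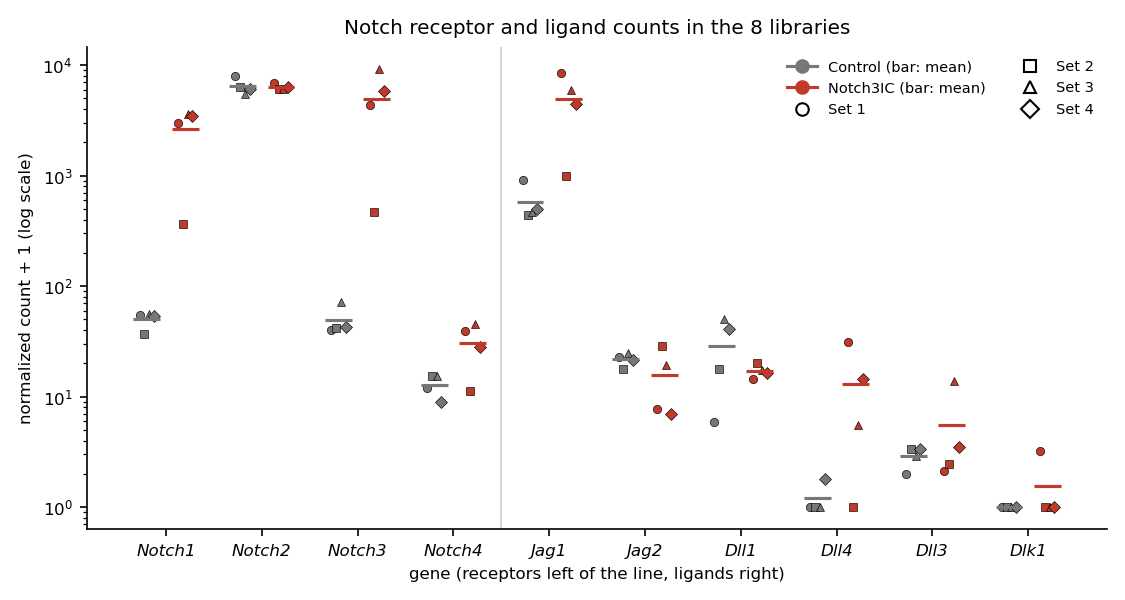
Normalized counts plus 1 (log axis) of each receptor and ligand gene in every library, with Control in grey and Notch3IC in red, the set given by the symbol, and a bar at the mean of each group of 4. Notch1, Notch3 and Jag1 separate the conditions, Notch2 lies between 5457 and 7984 in all 8 libraries, and the square of Set 2 is the lowest Notch3IC value of Notch1, Notch3, Notch4 and Jag1.

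Notch3, the receptor whose intracellular part was expressed, had 38.7, 40.5, 70.8 and 42.0 normalized counts in Control. The Notch3IC libraries had 4319.6, 467, 9214 and 5838. The groups did not overlap, and Set 2 was far below the other Notch3IC libraries. Its log2 fold change of 6.69 had a standard error of 0.88 (adjusted p = 0.0169, n = 4 per condition). The insert covers codons 1664 to 2318, 1965 bases that lie in exons 27 to 33 of 33 at chr17:32121823-32139258 of GRCm38, within the gene at chr17:32120820-32166852 on the minus strand. A count per gene cannot tell virus-encoded from endogenous Notch3 reads, so the response of the endogenous gene was not measurable here.

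Notch1, a receptor that was not introduced, rose in all 4 sets. Control libraries had 53.5, 35.8, 54.5 and 53.1 normalized counts and Notch3IC libraries 3005, 366, 3636 and 3449.7. The lowest Notch3IC library, that of Set 2, was still above every Control library. This was a log2 fold change of 5.72 with a standard error of 0.70 (adjusted p = 0.0169). The calls of Notch1 and Notch3 were lost without Set 3 (adjusted p = 0.215 for both) and without Set 4 (adjusted p = 0.221 for both), where 1 and 0 genes of the whole table were called. Their log2 fold changes were then 5.57 and 5.60 for Notch1 and 6.45 and 6.54 for Notch3. Notch1 lies at chr2:26457903-26516663 on the minus strand of GRCm38, where 0610009E02Rik and Gm13568 on the opposite strand cover 9.76% of its exon sequence. Since the strandedness of the counting is not given in the sources used here, reads of these genes cannot be told apart from Notch1 reads in those bases.

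Notch1 and Notch3 are related in sequence, so the insert was compared with the Notch1 transcript in windows as long as a read. The closest 100-base window had 86 matching bases, with a longest identical run of 21 bases, and of the 1866 windows of the insert none reached 90 matches. The 2 closest windows are shown 5′ to 3′ because they are where a read of the insert would most resemble Notch1, with the mismatching bases in capitals. The Notch3 window holds codons 1960 to 1993 in exons 32 and 33 (chr17:32122800-32124320, GRCm38, minus strand), and the Notch1 window codons 2038 to 2071 in exons 33 and 34 (chr2:26460916-26462186, minus strand). Both are coding sequence of the ankyrin repeat region.
Notch3: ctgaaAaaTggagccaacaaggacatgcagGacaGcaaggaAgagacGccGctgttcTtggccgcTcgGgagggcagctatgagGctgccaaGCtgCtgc
Notch1: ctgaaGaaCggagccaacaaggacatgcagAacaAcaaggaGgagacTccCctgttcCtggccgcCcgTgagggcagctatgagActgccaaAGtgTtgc
The closest window to Notch2 had 83 matching bases and a longest run of 20. It is shown because Notch2 carried most receptor counts in Control cells. The pair covers Notch3 codons 1837 to 1870 in exon 30 (chr17:32133450-32133549, minus strand) and Notch2 codons 1875 to 1908 in exon 31 (chr3:98143033-98143132, plus strand).
Notch3: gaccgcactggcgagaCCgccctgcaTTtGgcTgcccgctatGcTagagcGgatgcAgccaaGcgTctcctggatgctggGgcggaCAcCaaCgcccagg
Notch2: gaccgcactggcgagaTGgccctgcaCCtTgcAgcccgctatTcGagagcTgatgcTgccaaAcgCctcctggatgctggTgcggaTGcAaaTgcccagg
For Notch4 the closest window had 70 matching bases. Over all 45 pairs among the 10 full transcripts no window exceeded 86 matches. Notch1 had 69.6, 78.4, 39.5 and 59.1 normalized counts for every 100 of Notch3 in the Notch3IC libraries of Sets 1 to 4. How the aligner placed single reads was not tested.

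Notch2, the receptor with the highest level in Control cells, did not pass the test. It had 7984, 6336, 5457 and 6002 normalized counts in Control, against 6879, 6085, 6002 and 6345 in Notch3IC. All 4 Notch3IC values fell within the range of the Control values. With a log2 fold change of -0.03 and a standard error of 0.13, the adjusted p was 0.947. Within sets the log2 ratio was -0.22 in Set 1, -0.06 in Set 2, 0.14 in Set 3 and 0.08 in Set 4, with a higher value in 2 of 4 sets. The 95% interval for counting error excluded 0 in Sets 1, 3 and 4 but not in Set 2. Notch2 lies at chr3:98013527-98150361 on the plus strand of GRCm38.

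Notch4, a receptor found mainly in endothelium, was counted at low numbers. Control libraries had 10.9, 14.3, 14.4 and 7.92 normalized counts and Notch3IC libraries 38.0, 10.2, 44.1 and 27.0. The groups overlapped through Set 2 alone, where the Notch3IC library was below that of 3 Controls. A log2 fold change of 1.35 with a standard error of 0.45 was not called (adjusted p = 0.150). With the set as a replicate block the adjusted p was 0.0780, and without the Notch3IC library of Set 2 it was 0.0210, and Notch4 was called higher in both. The block called 5.19% of all tested genes higher, and leaving out that library 5.58% higher and 2.42% lower, in place of 3.4% and 0.74%. The deposited counts of Notch4 ranged from 7 to 48 per library. It lies at chr17:34564268-34588503 on the plus strand.

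The receptor pool of Control cells was made up almost wholly of Notch2. Per length, Notch2 held 98.7%, 98.4%, 97.2% and 98.3% of the summed receptor level, and Notch3, Notch1 and Notch4 held on average 1.02% ± 0.457, 0.579% ± 0.144 and 0.248% ± 0.0845 (SD, n = 4). The mean level of Notch2 in Control was 25.6 ± 4.33, above that of 81.7% of the 12309 tested genes with a known length. Notch1 at 0.148 ± 0.0271 was above 3.5% of them and Notch3 at 0.254 ± 0.0808 above 6.22%.

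In Notch3IC cells Notch3 held 38.5%, 8.89%, 58.2% and 46.4% of the receptor level in Sets 1 to 4. Notch1 held 15.2%, 3.96%, 13.1% and 15.6%, and Notch2 the remaining 46.0%, 86.9%, 28.4% and 37.8%, with under 1% for Notch4. The share of Notch2 was thus lower in every Notch3IC library than in any Control library, while its own level was 25.1 ± 1.57 (SD, n = 4) against 25.6 ± 4.33 in Control. By transcript level Notch2 remained the leading receptor gene in Sets 1 and 2, and Notch3 led in Sets 3 and 4. The viral Notch3 insert encodes the intracellular domain alone, which per the study needs no ligand or cleavage to act. Its reads were not separated from endogenous Notch3, so these shares do not measure full-length Notch3 receptor. These shares take the full exon length of Notch3, 8089 bases. Where all Notch3 reads of the Notch3IC libraries are instead assigned to the 1965 bases of the insert, the share of Notch3 was 72.0%, 28.7%, 85.2% and 78.1%, and Notch3 led in Sets 1, 3 and 4. Reads along the gene were not analysed here, so the files do not decide between these lengths. For Notch1 the exon length used was 14232 bases and the longest transcript has 9488. Its level and share would thus be higher by transcript length.

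The receptor level without Notch3 was 32.0, 25.4, 21.9 and 24.1 in the Control libraries. It was 36.6, 25.3, 35.0 and 35.7 in the Notch3IC libraries. Notch1 made up most of what was not Notch2 in this sum. In Set 2 the paired values differed by less than 1 unit, and in the other sets the Notch3IC value was the higher one.

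**Figure D2:**
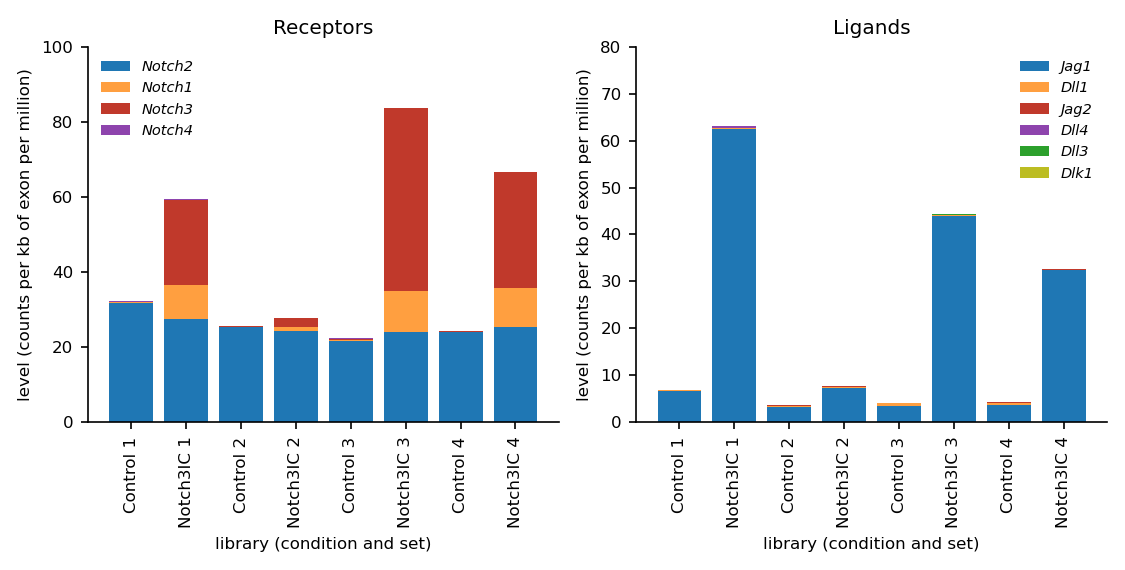
Stacked levels, in CPM per kilobase of exon, of the receptors (left) and ligands (right) in each library, ordered by set. Notch2 fills the Control receptor bars and keeps a similar height in Notch3IC, where Notch1 and Notch3 are added to it, and Jag1 fills the ligand bars of both conditions.

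Jag1, which encodes the ligand Jagged1, was the one ligand called. It had 909, 440.1, 465 and 499 normalized counts in Control, against 8507, 979, 5967 and 4398 in Notch3IC. The groups did not overlap, but the Notch3IC library of Set 2 lay close above the Control library of Set 1, which was the highest Control. Its log2 fold change of 3.10 had a standard error of 0.59 (adjusted p = 0.0349). The call was lost without the Control library of Set 3 (adjusted p = 0.119) and without that of Set 4 (adjusted p = 0.130), with log2 fold changes of 3.01 and 3.03, and likewise without the whole of Set 3 (adjusted p = 0.278) or Set 4 (adjusted p = 0.329). Jag1 lies at chr2:137081456-137116644 on the minus strand, and none of its exon bases overlap another gene of the annotation.

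Jag2, the second Jagged ligand, was low in all libraries. Control libraries had 21.8, 16.7, 23.9 and 20.6 normalized counts and Notch3IC libraries 6.71, 27.8, 18.4 and 5.91. The Notch3IC values lay on both sides of the Control range, with Set 2 the highest of all 8. A log2 fold change of -0.53 with a standard error of 0.49 did not pass the test (adjusted p = 0.629). Single sets moved this value, to -1.08 when both libraries of Set 2 were omitted and to -0.25 when Notch3IC of Set 4 was.

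Dll1, a Delta-family ligand, had 4.96, 16.7, 49.8 and 39.6 normalized counts in Control, against 13.4, 19.0, 16.5 and 15.2 in Notch3IC. The Notch3IC values were close together and lay inside the Control range, which was wide. With a log2 fold change of -0.80 and a standard error of 0.59, the adjusted p was 0.531. Omitting Control of Set 3 moved the log2 fold change to -0.37. The direction differed between sets, with log2 ratios of 1.36 and 0.19 in Sets 1 and 2 and of -1.56 and -1.36 in Sets 3 and 4, and this difference was not tested. A930024N18Rik on the opposite strand covers 20.55% of its exon sequence.

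Dll4, Dll3 and Dlk1 were close to the limit of detection. Dll4, an endothelial Delta ligand, had 0, 0, 0 and 1 counts in Control, against 27, 0, 5 and 16 in Notch3IC. Pooled over libraries this was 51.8-fold higher in Notch3IC, with a 95% interval of 8.86 to 2088 that covers counting error alone and not the spread between lines. Set 2 contributed no read, and a count of 0 there allows up to 4.39 normalized counts. It was called higher by edgeR run without an expression filter (adjusted p = 0.0789) and by DESeq2 (adjusted p = 0.0209), which called 5.05% of the 14019 genes it tested higher. Nearly all reads of Dll4 were in Notch3IC libraries, so these calls add no support beside that share. Dll3 had 8 counts in all Control libraries and 19 in all Notch3IC libraries, of which 14 were in Set 3. Dlk1 had 2 counts, both in the Notch3IC library of Set 1, and neither condition exceeded the floor of 3 counts in any library.

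Jag1 held 97.1%, 91.3%, 83.4% and 86.5% of the summed ligand level in Control, and Dll1 on average 6.83% ± 5.12 (SD, n = 4). Dll1 was the second ligand in Sets 2 to 4, and in Set 1 it held 0.731%, below the 1.95% of Jag2. In the Notch3IC libraries the share of Jag1 was 99.1%, 94.9%, 98.8% and 98.8%. It was higher than in Control in each set, although the Control library of Set 1 exceeded the Notch3IC library of Set 2. The summed ligand level rose from 4.69 ± 1.49 in Control to 37.0 ± 23.2 in Notch3IC (SD, n = 4). For each unit of ligand level there were 4.67, 7.22, 5.44 and 5.72 units of receptor in the Control libraries and 0.942, 3.67, 1.89 and 2.04 in the Notch3IC libraries, with no overlap. The full exon length of Notch3 was used for these values. The separation also held with Notch3 left out of the receptor sum. That sum was then 36.6, 25.3, 35.0 and 35.7 in Notch3IC, beside ligand levels of 63.1, 7.59, 44.4 and 32.7. In Control it was 32.0, 25.4, 21.9 and 24.1, beside 6.88, 3.54, 4.10 and 4.25. Virus-encoded Notch3, which is the intracellular domain alone, is counted as receptor where Notch3 is included. With the insert length, an alternative added after the values were seen, the Notch3IC libraries had 2.07, 4.68, 5.31 and 4.98 units, which overlap the Control range. These sums are descriptions of transcript levels and were not tested.

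The order of mean levels in Control was Notch2, Jag1, Dll1, Notch3, Notch1, Jag2, Notch4, Dll3, Dll4 and Dlk1. Notch2, from 21.7 to 31.7, lay wholly above Jag1, from 3.24 to 6.68, and Jag1 wholly above the rest. Dll1, from 0.0503 to 0.505, overlapped Notch3, Notch1, Jag2 and Notch4, and Notch1 overlapped Jag2. In Notch3IC, with the full exon length of Notch3, the order was Jag1, Notch3, Notch2, Notch1, Dll1, Notch4, Dll4, Jag2, Dll3 and Dlk1. Jag1, from 7.20 to 62.6, and Notch3, from 2.47 to 48.8, both overlapped Notch2, from 23.9 to 27.3, which lay wholly above Notch1, from 1.10 to 10.9. The genes from Dll1 to Dll3 overlapped one another. With the insert length, also added after the values were seen, the level of Notch3 was 108 ± 79.1 (SD, n = 4), and its mean was above that of Jag1 at 36.5 ± 23.2.

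The size of each change was then followed from set to set. The log2 ratio of Notch3 was 6.79 in Set 1, 3.51 in Set 2, 7.01 in Set 3 and 7.11 in Set 4, and that of Notch1 was 5.80, 3.33, 6.05 and 6.01. For Jag1 it was 3.23, 1.15, 3.68 and 3.14. Set 2 had the smallest ratio of all 3 genes, and in none of them did its counting interval reach that of another set. Among Sets 1, 3 and 4 the counting intervals overlapped for Notch3 and for Notch1, and for Jag1 Set 3 lay above the other two.

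**Figure D3:**
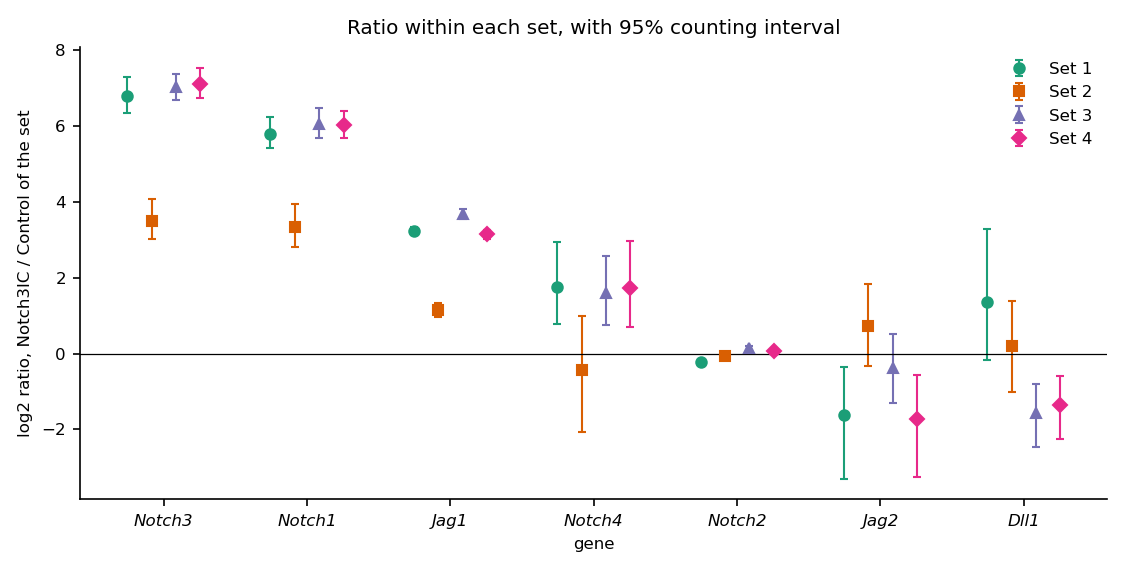
Log2 ratio of Notch3IC to Control within each set for the 7 tested genes, with exact 95% intervals for counting error and symbols and colours by set. Set 2 is the lowest for Notch3, Notch1, Jag1 and Notch4, and Notch2 stays near 0 in all 4 sets.

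The levels of Notch3 and Notch1 had the same order over the 4 Notch3IC libraries, Set 2, Set 1, Set 4 and Set 3 from lowest to highest. By log2 ratio to Control, Set 4 was above Set 3 for Notch3 (7.11 and 7.01) but not for Notch1 (6.01 and 6.05). Their counting intervals overlapped. The steps in level differed in size. From Set 2 to Set 1 Notch3 was 9.25-fold higher and Notch1 8.21-fold higher, whereas from Set 1 to Set 3 Notch3 was 2.13-fold higher and Notch1 1.21-fold higher. Jag1 followed another order, Set 2, Set 4, Set 3 and Set 1. It was 8.69-fold higher in Set 1 than in Set 2, but in Set 3 it was 0.701 times its level in Set 1, where Notch3 was 2.13 times. Jag1 had 197, 209.7, 64.8 and 75.3 normalized counts for every 100 of Notch3 in Sets 1 to 4, so Sets 3 and 4, with the most Notch3, had the fewest. These levels include the Control baseline of Jag1, which was 909, 440, 465 and 499. The rise over Control was 7598, 539, 5502 and 3899 for Jag1 and 4281, 426, 9143 and 5796 for Notch3. By log2 ratio to Control, Jag1 was highest in Set 3 (3.68) and not in Set 1 (3.23). Notch2 in Set 2 was at 88.5%, 101% and 95.9% of its level in Sets 1, 3 and 4. With 4 libraries these orders are descriptions, and no correlation was computed.

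**Figure D4:**
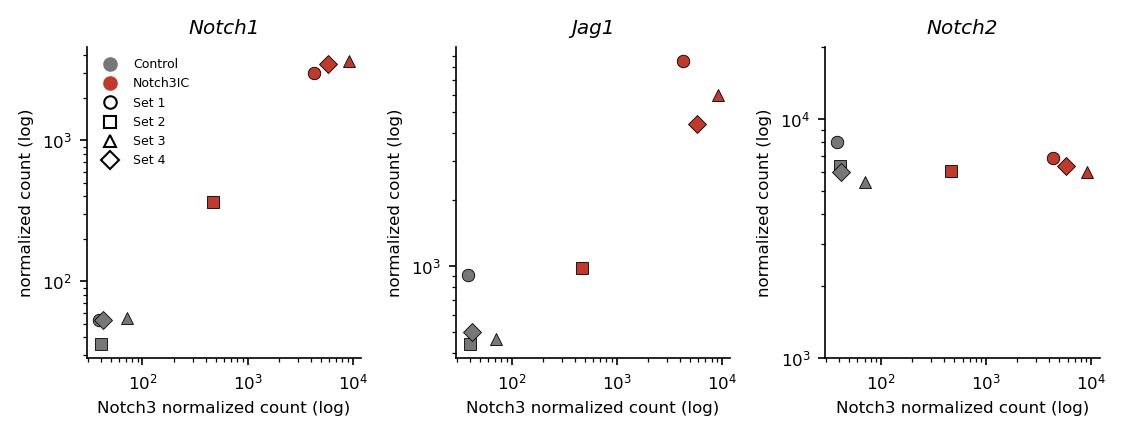
Normalized counts of Notch1, Jag1 and Notch2 against those of Notch3 in the 8 libraries (all axes log), Control in grey and Notch3IC in red with the set as symbol. Among the 3 Notch3IC libraries at the right, Notch1 spans 3005 to 3636 and Jag1 4398 to 8507 while Notch3 spans 4319.6 to 9214, and Notch2 is flat.

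Genes with the most similar change across sets were sought for each called member among 12423 other tested genes, by the root mean square difference of the 4 within-set log2 ratios. For Notch1 they were 4833422C13Rik (0.34), Pkp1 (0.34) and Flt1 (0.37). Flt1, a receptor for vascular endothelial growth factor, had log2 ratios of 6.36, 3.05, 6.43 and 5.90. For Notch3 the nearest were Scin (0.57), Plxnd1 (0.60) and Hey1 (0.66), where Plxnd1 encodes a semaphorin receptor and Hey1 a Notch target. For Jag1 they were Epas1 (0.14), Fam189a2 (0.22) and Cd97 (0.25), and Epas1, a hypoxia-inducible factor, had ratios of 3.25, 1.04, 3.72 and 3.39.

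The remaining Notch pathway was examined by role, from lists written for the pathway as a whole, beside a median log2 fold change of -0.01 over all tested genes. Of 7 genes for ligand ubiquitination and endocytosis 0 were called by edgeR or DESeq2 and 0 had an unadjusted p under 0.05 (median log2 fold change -0.01), among them the ligase Mib1 (log2 fold change -0.11, standard error 0.13) and Epn1, the most abundant (-0.01, standard error 0.08). Of 4 tested glycosylation genes 0 were called (median 0.05), and 1, Lfng, had an unadjusted p under 0.05 and was called lower by DESeq2, which called 1.37% of all genes it tested lower. Lfng, a Fringe glycosyltransferase that alters ligand preference, had a log2 fold change of -1.02 (adjusted p = 0.221), and Mfng had no count in any library. With the replicate block, under which 2.53% of all tested genes were called lower, 1 gene of each list was called lower, Neurl1a (adjusted p = 0.0998) and Lfng (adjusted p = 0.0653). In Set 2 neither was lower in Notch3IC, with log2 ratios of 0.22 for Neurl1a and 0.07 for Lfng. Of 10 cleavage genes 0 were called by either tool, with 1 at an unadjusted p under 0.05 (median 0.07), a limit passed by 18.4% of all tested genes. Adam10, the most abundant, had a log2 fold change of 0.05 (standard error 0.20), and Aph1b, a subunit of gamma-secretase, passed the p threshold but not the fold limit (0.48, adjusted p = 0.0385). Of 7 tested turnover genes (median 0.16) 4 had an unadjusted p under 0.05, beside 18.4% of all tested genes, and 1 was called higher, beside 3.4%. The 4 were Numbl (log2 fold change 0.38), Dtx2 (-0.62), Dtx3 (0.54) and the called gene, the Deltex-family gene Dtx4 (log2 fold change 3.38, adjusted p = 0.0591), which had 65, 128, 129 and 170 counts in Control and 324, 139, 2875 and 2055 in Notch3IC. The most abundant of them, Itch, had a log2 fold change of 0.16 (standard error 0.09).

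Of the 4 nuclear complex genes 0 were called by either tool, with 1 at an unadjusted p under 0.05 (median 0.29), beside 18.4% of all tested genes. Rbpj, the DNA-binding partner of the intracellular domain, had a log2 fold change of 0.13 (standard error 0.13), Maml1, the most abundant, 0.14 (standard error 0.10), and Maml2 0.43 (adjusted p = 0.0809). Of 5 tested target genes (median 7.34) 4 were called higher, against 3.4% of all tested genes. Hey2, with 3, 2, 1 and 5 counts in Control, and Heyl passed the expression filter only through their Notch3IC libraries. Their calls therefore add no support to this share. Hey1 rose by a log2 fold change of 7.35, Nrarp by 7.34 and Hey2 by 6.86, and Heyl went from at most 2 counts in any Control library to between 147 and 7460 in the Notch3IC libraries. Hes1 had a log2 fold change of 0.58 (adjusted p = 0.388).

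Other proteins proposed as Notch ligands were listed as well, and 4 of 8 were tested (median 1.44), with 2 called higher and 1 lower, beside 3.4% and 0.74% of all tested genes. Dlk2, an atypical Delta-like gene and the most abundant of them, fell from 319 ± 128 to 77.1 ± 56.9 normalized counts (log2 fold change -2.07, adjusted p = 0.0699, lower in 4 of 4 sets), though by only -0.17 in Set 2. Nov, a matricellular CCN protein, rose from 14.0 ± 5.93 to 88.1 ± 22.7 (log2 fold change 2.67, adjusted p = 0.0182, higher in 4 of 4 sets). Mfap2, a microfibril protein, rose from 2.37 ± 2.54 to 17.7 ± 7.83 (log2 fold change 2.93, adjusted p = 0.0590). With no Control library above 5 counts, Mfap2 passed the expression filter only through its Notch3IC libraries. Its call therefore adds no support to the share of this list called higher. The log2 ratio of Nov was 1.99, 1.91, 2.65 and 4.32 in Sets 1 to 4, so Set 2 did not stand apart for this gene. Of the others Egfl7 was not called, Cntn1, Cntn6 and Mfap5 had no count, and Dner had 1 count in each of 2 libraries.

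**Figure D5:**
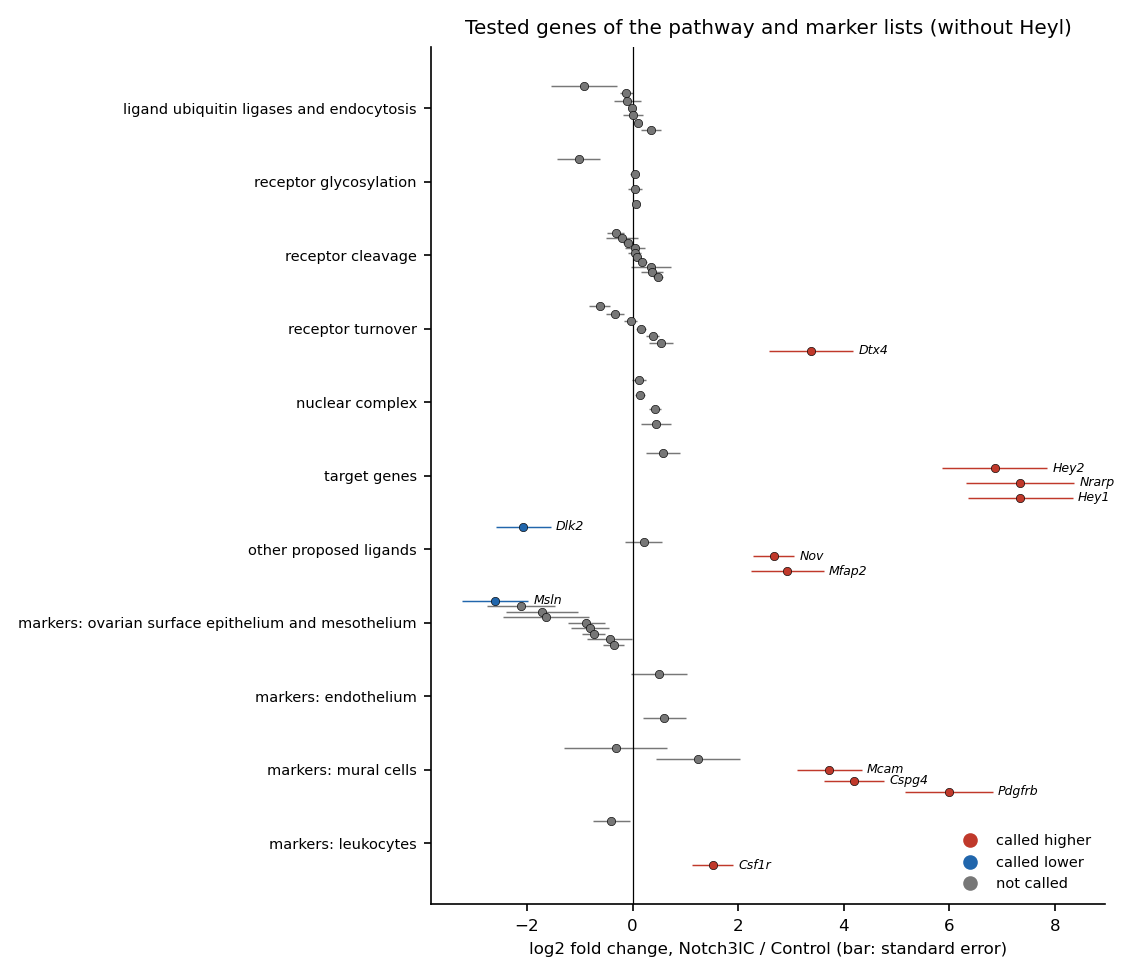
Log2 fold change (Notch3IC against Control) with its standard error for every tested gene of the pathway and marker lists except Heyl, whose Control counts are at or near 0. Genes called higher are red, lower blue and the others grey, and the called pathway genes are targets, Dtx4 and 3 other proposed ligands.

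Markers of other cell types were counted in the same libraries. Of 5 tested mural cell markers, of 8 listed, 3 were called higher, Pdgfrb (log2 fold change 5.99), Cspg4 (4.20) and Mcam (3.73), beside 3.4% of all tested genes. Kcnj8, also tested, had a log2 fold change of -0.32 (adjusted p = 0.908). The mural list summed to 33647, 11307, 7091 and 2930 normalized counts in Control, against 78422, 19187, 31355 and 25383 in Notch3IC. Most of it was Acta2, with a log2 fold change of 1.24 that was not called (adjusted p = 0.155). With the replicate block, which called 5.19% of all tested genes higher, Acta2 was called as well (log2 fold change 1.45, adjusted p = 0.0362). The block thus called 4 mural markers higher. The mural markers Rgs5, Des and Abcc9 did not pass the edgeR filter. DESeq2 tested Rgs5 and called it higher, at 1 to 4 counts in Control and 18, 3, 68 and 60 in Notch3IC, so that it called 4 mural markers higher, beside 5.05% of the genes it tested. Most reads of Rgs5 were in its Notch3IC libraries, so its call adds no support to the comparison with 5.05%. Of the endothelial markers 5 of 7, Cdh5, Tek, Tie1, Emcn and Erg, had at most 3 counts in any library, neither Pecam1, the most abundant, nor Kdr was called, and their sum was between 12.7 and 50.3 normalized counts. Of 9 tested markers of ovarian surface epithelium and mesothelium (median log2 fold change -0.88) Msln was called lower (log2 fold change -2.60, adjusted p = 0.0625), beside 0.74% of all tested genes. An unadjusted p under 0.05 was reached by 5 of the 9, beside 18.4% of all tested genes. DESeq2 called 4 lower, Krt7, Krt19, Upk3b and Msln, beside 1.37% of the genes it tested. Krt7 did not pass the edgeR filter, and had 5, 2, 46 and 7 counts in Control against 1, 1, 2 and 2 in Notch3IC. Most reads of Krt7 were in its Control libraries, so its call adds no support to the comparison with 1.37%. With the replicate block, which called 2.53% of all tested genes lower, 5 of these markers were called, adding Krt19, Upk3b, Lrrn4 and Gata6 to Msln. Their sum, led by Upk3b, was 26841, 48827, 72777 and 69902 in Control, against 9293, 32631, 28206 and 22190.3 in Notch3IC, so markers of the labelled cell type were present in every library. Of 6 leukocyte markers 2 were tested. Csf1r was called higher (log2 fold change 1.52, adjusted p = 0.0719) at 7 to 36 counts, beside 3.4% of all tested genes, and Cd68 had a log2 fold change of -0.40 (adjusted p = 0.610). With no Control library above 10 counts, Csf1r passed the expression filter through its Notch3IC libraries. Its call therefore adds no support to the comparison with 3.4%. In Set 2 the count of Csf1r was 10 in each condition. Ptprc, Itgam and Cd3e had at most 2 counts in any library. Cd79a, also not tested, had 1, 0, 1 and 2 counts in Control and 2, 1, 3 and 7 in Notch3IC. The sum of the leukocyte list, led by Cd68, was between 57.5 and 128. None of 4 neuroendocrine markers, led by Syp, reached the filter. The part of these markers in the changes of Notch1 and Jag1 was not tested.

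Promoter windows, 250 bases before to 50 after the start of a gene in RefSeq (GRCm38.p6), were searched for TGGGAA, the core letters bound by Rbpj, on both strands. The 10 genes had 11 windows, of which 0 held a match, where 25.6% of 32851 windows did. Matches outside these windows were not searched.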

How the data were processed

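Per the labels, polyadenylated RNA was sequenced as 100-base single-end reads, and the submitters' processing notes name TopHat, Cufflinks, DESeq and mm9. Versions, the annotation and the strand setting are not given in the sources used here. The authors deposited whole-number counts per gene symbol, 1 table per library, without normalization. All 8 tables were used.

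Counts were analysed with edgeR 4.0.16 in R 4.3.3 (TMM, filterByExpr by condition, robust quasi-likelihood F test, condition as the only term, Benjamini-Hochberg adjustment over 12430 genes). The standard error is the log2 fold change divided by the square root of F. Ratios within a set used a pseudocount of 0.5 and Clopper-Pearson intervals. Those intervals, and floors of 3 counts, cover counting error only. Levels used exon lengths of GENCODE release M21 (GRCm38), which matched 11249 tested symbols directly and 1060 by synonym. Positions printed are GRCm38, not the build of the counts. The biological coefficient of variation was 26.3%, or 14.1% with the set as a block.

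Sets are matched pairs in the study's methods, and deviations from the group means correlated at 0.408 to 0.794 within sets and at -0.511 to 0.400 between sets. The study named no set term, so the block is an alternative. Others were DESeq2 1.42.0, other scalings, filters, lengths and pseudocounts, and leaving out each library or set. The members and gene lists were chosen with earlier results of these data known. Genes named are all members, list genes that passed the test or led their list in abundance, and the 3 genes nearest to each called member, and a few further list genes were picked with their values in view. The fit was first run on simulated counts. Figures were drawn with Python 3.11.15 and Matplotlib 3.10.9.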

Additional observations from a re-analysis of the deposited data

Results flagged for a closer look

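Among 31 groups of 4 values (members, library totals and shares by condition), 8 held a library far from the other 3. Chance gives about 1 in 20 for independent groups of continuous values, and that share cannot be applied to these 31, since the shares are computed from the members themselves and a group with reads in 1 library alone meets the criterion by construction, as Dll4 in Control and Dlk1 in Notch3IC did. In Control these were the lowest Notch1 value, 35.8 normalized counts in Set 2, the highest Notch3 value, 70.8 in Set 3, the highest Jag1 value, 909 in Set 1, and the only Dll4 read, worth 0.792 in Set 4. In Notch3IC they were the highest Dll3 value, 12.9 in Set 3, the only Dlk1 reads, worth 2.24 in Set 1, and the lowest share of Jag1 in the ligand level, 94.9% in Set 2. The receptor level without Notch3 was also lowest in Set 2, at 25.3 CPM per kilobase of exon. The Dll4, Dll3 and Dlk1 values rest on 1, 14 and 2 counts.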

How the results depend on the processing

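With the set as a replicate block 645 genes were called higher and 315 lower, in place of 423 and 92, and the receptors and ligands called were Notch1, Notch3, Jag1 and Notch4. The block changed the call of no other tested receptor or ligand. DESeq2 called 708 and 192 genes, and 5 receptors and ligands, adding Notch4 and Dll4. Dll4 had 1 count in all Control libraries, so its call adds no support to this number. Genes called lower numbered 48 at an adjusted p under 0.05 and 210 without a fold-change limit. Leaving out 1 library or 1 set gave 0 to 702 genes higher, 0 to 305 lower and 0 to 4 receptors and ligands higher. The receptors and ligands called numbered 0 without Set 3 or Set 4, where 1101 and 1011 genes had an unadjusted p under 0.05 and the adjusted p of Notch1 was 0.215 and 0.221, that of Notch3 the same, and that of Jag1 0.278 and 0.329. The cause was not tested. Calls rose to 702 and 305 when Notch3IC of Set 2 was left out. They fell to 75 and 8 when the Control library of Set 3 was left out, and to 99 and 11 when that of Set 4 was. No receptor or ligand was called lower under any of the 21 alternatives. The log2 fold change of Notch2 lay between -0.10 and 0.092 with a library or set left out and was never called, turning positive without the Control library of Set 1 (0.092) or without Set 1 (0.047). The share of Notch3 in the receptor level of Notch3IC, 38.0% on average, was 66.0% with the insert length. Over 19 settings the log2 fold change of Notch1 lay between 5.52 and 6.08, of Notch3 between 6.20 and 7.06 and of Jag1 between 2.72 and 3.44. Over 18 settings that of Jag2 lay between -1.08 and -0.25 and that of Dll1 between -1.15 and -0.37. Depth limits Notch4, Jag2, Dll1, Dll3, Dll4 and Dlk1, with at most 52 counts in any library.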
